A study of Mus musculus with 11 samples.

Results

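Transcripts of the airway epithelium were followed in alveolar macrophage preparations from mice given CpG, an oligonucleotide that activates the innate DNA receptor Tlr9. The 10 transcripts were the secretoglobins Scgb1a1, Scgb3a1 and Scgb3a2, the BPI fold genes Bpifa1 and Bpifb1, the enzymes Cyp2f2, Cyp2a5 and Cbr2, the tetraspanin Tspan1 and the surfactant gene Sftpc, out of 19505 genes named on the array. They were taken by symbol, 1 transcript cluster for each, from a list drawn up after their levels in these arrays were known. Their own differences between groups are therefore given as a description, with no test.

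Female C57BL/6J mice, bought when 6 weeks old, received 5 injections within 10 days. The resolution mice (n = 4) received CpG 1826 and were lavaged on day 30, the acute mice (n = 3) received CpG 1826 and were lavaged on day 10, and the control mice (n = 4) received PBS and were lavaged on day 10. The model stands for macrophage activation syndrome (MAS), a state of excessive macrophage activity. Cells adhering after bronchoalveolar lavage were taken as alveolar macrophages, and RNA of each mouse went on 1 Affymetrix array. The resolution and control groups differ in the day of lavage as well as in the injection, so that day and injection cannot be told apart in that comparison.

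Club cells line the small airways, secrete small secretoglobin proteins into the airway fluid and carry cytochrome P450 enzymes that metabolise inhaled compounds. BPI fold proteins are secreted by upper and conducting airways and act in mucosal defence. Alveolar type 2 cells, which make surfactant, are the known source of Sftpc, so that the name airway epithelium does not cover this gene. Cbr2 is also known from some tissue macrophages. In bulk RNA, a change in the number of cells of one type and a change in RNA per cell cannot be told apart.

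Every level below is log2(intensity + 1) of the deposited value, and a difference of 1 is a 2-fold change. An array's background was the 90th percentile of its 23 antigenomic control probe sets, designed against no mouse transcript, and lay between 6.12 and 6.24. Array medians of intensity were 51.4 to 57.0, and pairs of arrays correlated over genes at 0.988 to 0.995 inside a group and at 0.975 to 0.993 across groups. All 19 measured alveolar macrophage markers of 22 listed were above background on all 11 arrays. Siglecf, a sialic acid receptor of these cells, lay between 14.5 and 15.3, and Chil3, a chitinase-like protein, between 16.7 and 17.0. Marco ranged more widely, from 12.9 to 14.4, and Pparg from 12.9 to 14.0. Epithelial structural genes were mixed. The adhesion genes Epcam (7.24 to 8.22) and Cdh1 (12.7 to 13.7) and the keratin Krt19 (11.5 to 13.9) were above background on all 11 arrays. The levels of Cdh1 and Krt19 overlapped those of the macrophage marker Csf1r (12.73 to 13.64), while Epcam lay below all 19 macrophage markers. Which cells carried the RNA of Epcam, Cdh1 and Krt19 was not tested. Krt18, a keratin, and Nkx2-1, the lung epithelial transcription factor, were below background on all 11 arrays, and the keratin Krt8 was above it on 1 array.

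The 250 bases before the RefSeq transcription start (GRCm38.p6) are shown for 1 secretoglobin, 1 BPI fold gene and 1 P450 gene, as genes whose levels moved together over the arrays. Capitals mark matches to the core promoter box TATAAA, searched on the forward strand only, and to 3 factor motifs, searched on both strands. These were TGTTTAC for FOXA factors, CTCAAG for NKX2-1 and TTGCNNAA for C/EBP factors. No matches overlap in the windows printed. The other windows searched, of Bpifb1, Cyp2f2, Cbr2 and Tspan1, held no match, so that the windows printed are those with one.
Scgb3a1, chr11:49663345-49663594, plus strand: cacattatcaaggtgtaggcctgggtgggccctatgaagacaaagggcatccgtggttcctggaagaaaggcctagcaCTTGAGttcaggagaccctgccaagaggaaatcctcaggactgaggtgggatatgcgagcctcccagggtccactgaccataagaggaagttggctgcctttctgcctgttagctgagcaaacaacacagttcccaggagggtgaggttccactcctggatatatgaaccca
Bpifa1, chr2:154142630-154142879, plus strand: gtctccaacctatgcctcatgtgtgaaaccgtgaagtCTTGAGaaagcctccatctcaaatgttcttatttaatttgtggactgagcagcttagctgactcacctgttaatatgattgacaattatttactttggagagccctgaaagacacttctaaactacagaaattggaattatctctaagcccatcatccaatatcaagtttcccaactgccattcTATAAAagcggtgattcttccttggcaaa
Cyp2a5, chr7:26835089-26835338, plus strand: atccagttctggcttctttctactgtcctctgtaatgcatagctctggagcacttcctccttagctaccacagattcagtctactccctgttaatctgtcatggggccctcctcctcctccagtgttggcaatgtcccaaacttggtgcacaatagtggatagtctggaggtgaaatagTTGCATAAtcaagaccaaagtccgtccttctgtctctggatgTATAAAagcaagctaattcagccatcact

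Among the 8 windows of these genes that were searched (2 of them of Bpifb1), 2 held the NKX2-1 letters (Scgb3a1 and Bpifa1), against 13.3% of 32851 windows in the whole table. The core promoter box stood in 2 windows (Bpifa1 and Cyp2a5, in both 29 to 24 bases before the start), against 7.59% of all. The C/EBP letters stood in 1 window (Cyp2a5), against 9.56% of all. The FOXA letters, found in 3.17% of all windows, were in none of the 8. An interferon response motif (ISRE) was also searched and had no match in the 8 windows. Its letters and its share over all windows are not given, so that nothing can be read from this absence. A match is a match of letters and was not tested as a binding site.

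The secretoglobins were at their highest in the acute arrays and at their lowest in the resolution arrays. Scgb1a1, the main secreted protein of club cells, had levels of 6.99, 7.96, 7.24 and 7.77 in resolution arrays, 11.48, 11.06 and 10.94 in acute arrays, and 9.05, 7.88, 8.97 and 9.81 in control arrays. Every acute array lay above every control array, by at least 1.12, while resolution replicate 2 overlapped control replicate 2. Scgb3a1, which is secreted in the larger airways, had 6.77, 7.68, 6.97 and 7.30 in resolution arrays, 11.39, 10.74 and 10.71 in acute arrays, and 7.90, 8.30, 7.31 and 9.71 in control arrays. Resolution and control overlapped, and the highest control was 1.00 below the lowest acute array. Scgb3a2, a club cell secretoglobin present from lung development onwards, had 8.28, 9.43, 8.11 and 9.86 in resolution arrays, 13.86, 13.26 and 12.70 in acute arrays, and 10.48, 10.11, 10.71 and 11.92 in control arrays. Its groups did not overlap.

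As differences of group means, Scgb1a1 was 2.23 ± 0.37 (SE) above control in the acute group and 1.44 below it in the resolution group (difference -1.44 ± 0.34, SE). Scgb3a1 stood 2.64 ± 0.44 (SE) above control in the acute group, and its resolution difference was -1.12 ± 0.41 (SE), or -0.66 without control replicate 4. The acute group mean of Scgb3a2 was 2.47 ± 0.48 (SE) above control, a 5.53-fold difference, and its resolution mean differed by -1.88 ± 0.44 (SE). Between resolution and acute arrays the 3 secretoglobins differed by -3.67 to -4.35, which is 12.7-fold for Scgb1a1, 13.6-fold for Scgb3a1 and 20.4-fold for Scgb3a2.

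**Figure D1:**
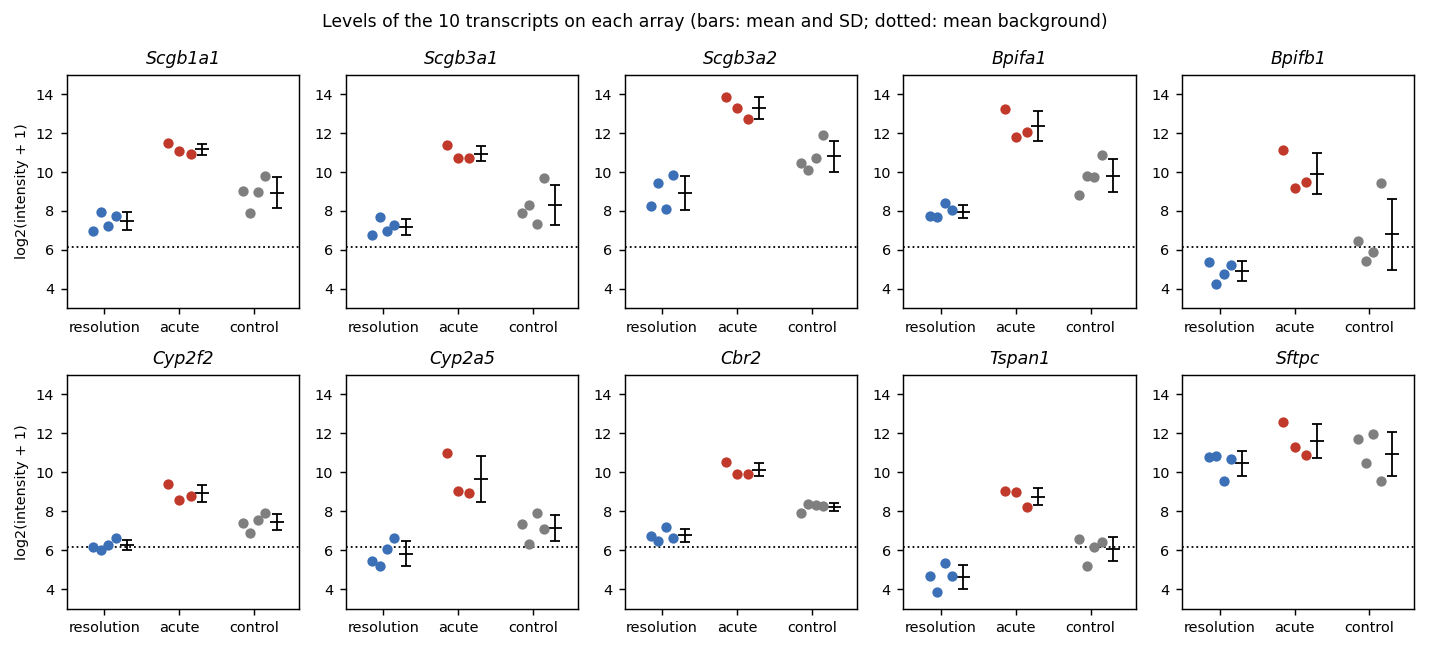
Level of each of the 10 transcripts, as log2(intensity + 1), on the resolution (n = 4), acute (n = 3) and control (n = 4) arrays. Points are arrays, bars the mean and SD, and the dotted line the mean background. For 8 transcripts every acute array lies above every control array, and Sftpc and Bpifb1 overlap.

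The BPI fold genes followed the same order of groups. Bpifa1 (also called Plunc), a secreted protein of upper airway and nasal epithelium, had 7.72, 7.67, 8.40 and 8.07 in resolution arrays, 13.22, 11.79 and 12.06 in acute arrays, and 8.82, 9.79, 9.77 and 10.86 in control arrays. No group overlapped another for this gene. Bpifb1 (Lplunc1), a related secreted protein of goblet cells and glands, had 5.38, 4.27, 4.75 and 5.24 in resolution arrays, 11.11, 9.15 and 9.46 in acute arrays, and 6.45, 5.43, 5.90 and 9.44 in control arrays. Control replicate 4 stood within the acute range, and the other 3 controls lay between 5.43 and 6.45.

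Bpifa1 averaged 12.36 ± 0.76 (SD, n = 3) in acute arrays and 9.81 ± 0.84 (SD, n = 4) in control arrays, a difference of 2.55 ± 0.42 (SE). In resolution arrays Bpifa1 averaged 7.97 ± 0.34 (SD, n = 4), with a difference from control of -1.84 ± 0.39 (SE). Bpifb1 had the largest acute difference of the 10 genes, 3.10 ± 0.78 (SE), and also the widest control range, 4.01. It was below background on all 4 resolution arrays, above it on all 3 acute arrays and above it on 2 of 4 control arrays. Its resolution level was therefore at least 13.2-fold below acute and at least 1.53-fold below control. The bound against control rests on control replicate 4, since the other 3 controls averaged 5.93, below background. The measured resolution difference from control, -1.89, became -1.01 without control replicate 4.

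The 3 enzymes had the same order of group means. Cyp2f2, the P450 of club cells that activates naphthalene in the mouse, had 6.19, 6.02, 6.29 and 6.63 in resolution arrays, 9.42, 8.59 and 8.77 in acute arrays, and 7.41, 6.90, 7.56 and 7.92 in control arrays. Its groups did not overlap, and 3 of 4 resolution arrays were above background by a small margin. Cyp2a5, a P450 that oxidises coumarin and nicotine and is found in liver and in airway and olfactory epithelium, had 5.44, 5.20, 6.05 and 6.61 in resolution arrays, 11.01, 9.05 and 8.92 in acute arrays, and 7.35, 6.30, 7.89 and 7.07 in control arrays. Acute replicate 1 was 2.03 above the mean of the other acute arrays, and resolution replicate 4 overlapped control replicate 2. Cbr2, a lung carbonyl reductase, had 6.74, 6.50, 7.21 and 6.61 in resolution arrays, 10.51, 9.94 and 9.92 in acute arrays, and 7.93, 8.39, 8.33 and 8.26 in control arrays. Of the 10 transcripts Cbr2 had the narrowest control range, 0.46, and gaps of 1.53 between acute and control and 0.72 between control and resolution.

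Cyp2f2 averaged 8.93 ± 0.43 (SD, n = 3) in acute arrays and 7.45 ± 0.42 (SD, n = 4) in control arrays, a 2.78-fold difference that was the smallest but that of Sftpc. Cyp2a5 was 5.70-fold higher in acute than in control arrays, with a difference of 2.51 ± 0.51 (SE), and 1.83 without acute replicate 1. Cbr2 was 1.90 ± 0.20 (SE) higher in acute than in control arrays and differed by -1.47 ± 0.18 (SE) in resolution arrays. Resolution against acute levels differed 6.25-fold for Cyp2f2, 14.3-fold for Cyp2a5 and 10.3-fold for Cbr2. The Cyp2a5 ratio is one of measured means, with 1 of 4 resolution arrays above background. Cyp2a4, a close paralog whose RNA could cross-hybridise with Cyp2a5 probes, was below background on all 11 arrays, at 4.00 to 4.20 in resolution, 5.44, 4.84 and 4.75 in acute and 4.10 to 4.27 in control arrays. The part of cross-hybridisation in the Cyp2a5 values was not tested.

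Tspan1, a membrane tetraspanin of secretory epithelia, had 4.67, 3.86, 5.37 and 4.69 in resolution arrays, 9.04, 8.97 and 8.24 in acute arrays, and 6.57, 5.20, 6.15 and 6.40 in control arrays. It was above background on 0 of 4 resolution, 3 of 3 acute and 2 of 4 control arrays. As a ratio of measured means its acute level was 6.36-fold that of control, and it was at least 5.89-fold that of resolution, while no fold can be given between resolution and control. The gap between the lowest acute and the highest control array, 1.67, was the widest of the 10.

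Sftpc, which encodes surfactant protein C of alveolar type 2 cells, had 10.81, 10.81, 9.53 and 10.66 in resolution arrays, 12.56, 11.31 and 10.89 in acute arrays, and 11.69, 10.50, 11.97 and 9.55 in control arrays. Acute and control arrays were intermixed, and so were resolution and control arrays. The difference was 0.66 ± 0.56 (SE) between acute and control, and it ranged from 0.17 without acute replicate 1 to 1.01 without acute replicate 3. Between resolution and control it was -0.47 ± 0.51 (SE), from -0.93 without control replicate 4 to -0.13 without control replicate 3. Resolution replicate 3 alone, at 9.53, was below the other resolution arrays. All acute arrays were above all resolution arrays, by 0.07 at the nearest, and the mean difference of -1.13 became -0.65 without acute replicate 1.

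**Figure D2:**
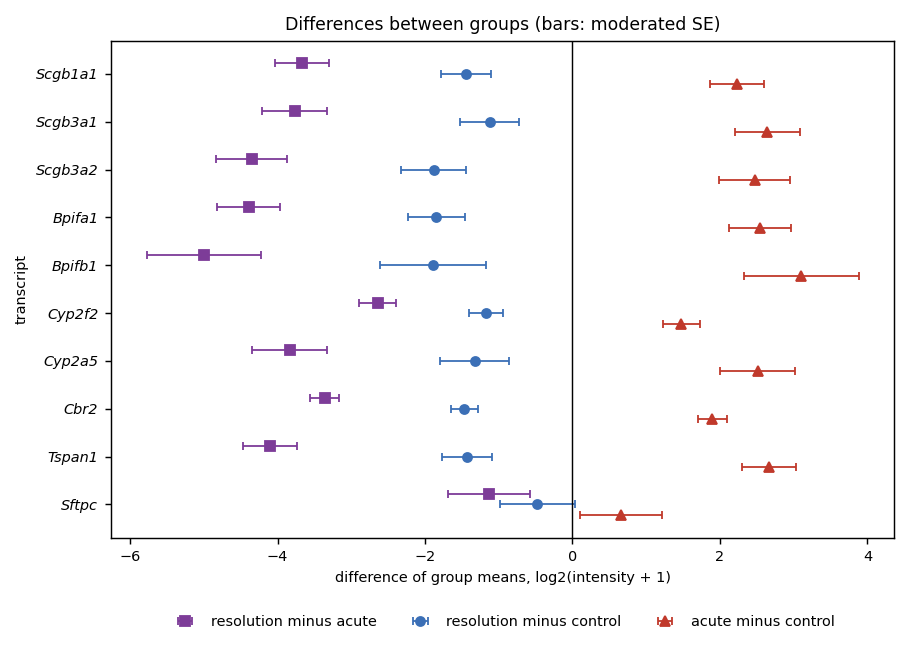
Differences of group means of the 10 transcripts on the log2(intensity + 1) scale, with moderated SE as bars, for resolution minus acute, resolution minus control and acute minus control. For 9 transcripts the acute differences from control run from 1.48 to 3.10 and the resolution differences from control from -1.89 to -1.12, and Sftpc lies nearest to 0 in all 3 comparisons.

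Counted together, acute arrays exceeded control arrays without overlap for 8 of the 10 transcripts, and the same holds for 4.71% of the 12143 genes that passed the filter on dim signals. All 10 differences were positive, with a median of 2.49 against -0.00 over all tested genes. Resolution arrays lay below control arrays without overlap for 5 of 10 (Scgb3a2, Bpifa1, Bpifb1, Cyp2f2 and Cbr2), against 11.2% of all tested genes, and the median difference was -1.44. Resolution arrays lay below acute arrays without overlap for 10 of 10, against 12.9% of tested genes, with a median of -3.80. The list was chosen from these contrasts, so that nothing can be read from these counts beyond the values. The comparisons with control share the same 4 control arrays.

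**Figure D3:**
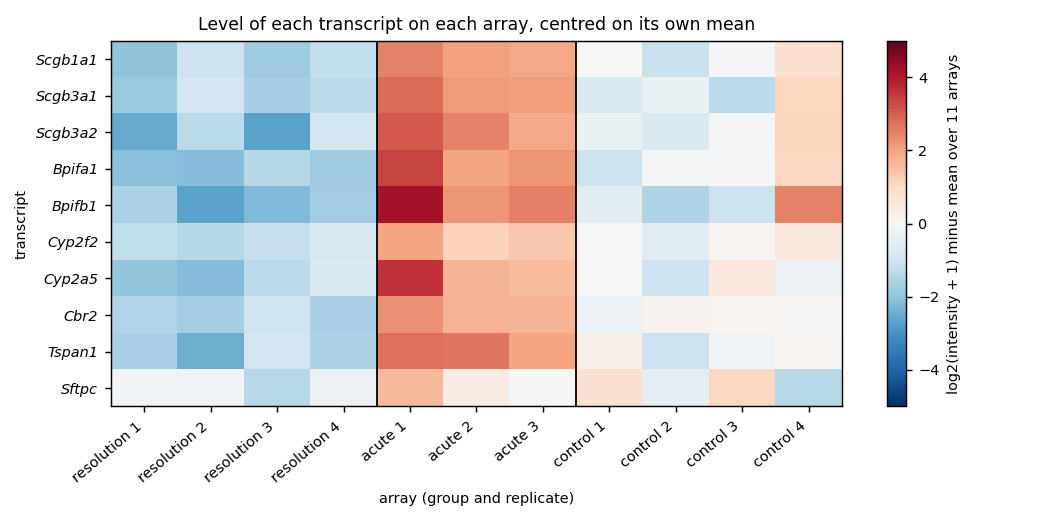
Level of each transcript on each array minus its own mean over the 11 arrays, on the log2 scale. Columns are arrays in the order resolution, acute and control, and rows are transcripts. Acute replicate 1 is highest among acute arrays in all 10 rows, and control replicate 4 is high for Bpifb1 (9.44) and low for Sftpc (9.55).

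Arrays of one group differed in ways that many of the transcripts shared in the acute group and fewer in the others. Acute replicate 1 was the highest acute array for 10 of 10 transcripts, from 0.43 above the mean of the other acute arrays for Tspan1 to 2.03 for Cyp2a5. The mean level over the 10 transcripts was 11.36 in acute replicate 1, 10.39 in replicate 2 and 10.26 in replicate 3. The same array stood apart for Alas2, which makes heme in developing erythrocytes, at 15.15 against 6.99 and 9.26 in the other acute arrays, 5.54 to 7.25 in resolution and 5.72 to 6.70 in control arrays. Whether red cell RNA has a part in the airway levels of that array was not tested. The median of the 10 acute differences from control was 2.09 without acute replicate 1.

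Among controls, replicate 4 was the highest for 6 of 10 transcripts (Scgb1a1, Scgb3a1, Scgb3a2, Bpifa1, Bpifb1 and Cyp2f2). Its Bpifb1 level was 3.51 and its Scgb3a1 level 1.87 above the mean of the other controls. For Sftpc the same array was the lowest control, 1.84 below the mean of the others, and for Cyp2a5 it differed from the others by -0.11. Control replicate 2 was the lowest control for 6 of 10 transcripts. Among resolution arrays replicate 2 was the lowest for 6 transcripts and the highest for 3, and replicates 3 and 4 were each the highest for 3. Resolution arrays had the lowest mean levels, 6.90 to 7.34 over the 10 transcripts, against 10.26 to 11.36 in acute and 7.88 to 9.09 in control arrays. As summed intensity the 10 transcripts came to 1984 to 3536 in resolution arrays, 19320 to 42897 in acute arrays and 4590 to 9674 in control arrays.

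Other epithelial markers, from 6 lists without the 10 transcripts, were mostly below detection. Of 101 such genes on the array, 68 were below background on all 11 arrays, among them all 8 measured basal and squamous genes. For acute against control, 0 of the 55 that passed the filter were called by limma at an adjusted p under 0.05, and 9 had an unadjusted p under 0.05 (16.4%, against 9.05% of all tested genes). Calls were rare in this comparison, with 0.189% of tested genes higher and 0.0494% lower. Over the 101 genes the median difference was 0.10, against 0.01 over all genes on the array, and 72 were positive. The nearest to a call was Muc1, a membrane mucin, with 8.17, 7.33 and 7.46 in acute arrays and 6.28, 5.99, 7.07 and 6.48 in control arrays (difference 1.20 ± 0.26, SE; limma adjusted p = 0.0941).

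Between resolution and acute arrays 12 of the 55 tested epithelial markers fell (21.8%, against 6.69% of all tested genes) and 5 rose (9.09%, against 7.77%). The lists were chosen with earlier results of these data known. Among the falls only Reg3g, Ces1d and Pigr kept their call under all 16 alternatives applied to single genes. Fits of the compared groups only were not among them. Among the rises Krt19, Abca3, Prom1 and Akap5, a gene of the alveolar type 1 list, did so. The secretory list accounted for 5 falls among its 17 tested genes. Reg3g, an antibacterial lectin of mucosal epithelium, had 5.23, 5.29, 5.07 and 5.01 in resolution arrays, all below background, and 7.01, 6.66 and 6.77 in acute arrays. It was at least 1.54-fold lower in resolution (difference -1.66 ± 0.23, SE; limma adjusted p = 0.000428). Ces1d, a carboxylesterase, had 6.12, 6.23, 5.49 and 5.64 in resolution arrays, all below background, and 8.14, 7.18 and 7.03 in acute arrays. It was at least 2.39-fold lower in resolution (limma adjusted p = 0.00148). In both genes the acute and resolution arrays did not overlap.

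The further secretory falls were in dim genes. Pigr, the epithelial receptor that carries antibodies into secretions, was above background on 1 of 3 acute arrays and on no resolution array, with a mean difference of -1.46 ± 0.32 (SE; limma adjusted p = 0.00890). Lypd2 and Gabrp were below background on all arrays, with differences of -0.86 and -0.85. The call of Lypd2 ended without acute replicates 1 (limma adjusted p = 0.0521) or 2 (0.0564), and that of Gabrp without acute replicates 1 (0.0603) or 3 (0.0565). Between resolution and control arrays Reg3g was the 1 gene of this list that was called, with a difference of -0.72 ± 0.21 (SE; limma adjusted p = 0.0314), with 0 of 4 resolution and 1 of 4 control arrays above background, and the call ended without resolution replicates 1 (0.0524), 3 (0.0740) or 4 (0.0744).

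Alveolar and structural genes went both ways between resolution and acute arrays. Sftpa1, surfactant protein A of type 2 cells, had 5.92, 6.30, 5.41 and 5.93 in resolution arrays and 7.26, 6.68 and 6.94 in acute arrays, a fall of 1.07 (limma adjusted p = 0.0144, and 0.0711 without acute replicate 1), with 1 of 4 resolution arrays above background. Abca3, the lipid transporter of surfactant bodies, rose 1.81-fold (limma adjusted p = 0.00449). Cldn18, a claudin of alveolar epithelium, fell 2.81-fold (limma adjusted p = 0.0232), but 6 of the 11 arrays each ended its call when left out (adjusted p = 0.0514 to 0.0877). Krt19, a keratin, had 13.68, 13.78, 13.85 and 13.85 in resolution arrays and 11.46, 11.88 and 12.01 in acute arrays, and rose 4.02-fold (limma adjusted p = 1.4e-05). The cell source of the Krt19 signal was not tested. Muc1 fell 2.16-fold (limma adjusted p = 0.0119), but not without acute replicate 1 (0.0605). Prom1, a membrane glycoprotein, rose 2.21-fold (limma adjusted p = 0.00402), whereas Krt8 was above background on 1 acute array only.

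Of 8 tested genes of ciliated cells, which move mucus, 2 fell and 1 rose between resolution and acute. Riiad1 fell 1.82-fold (limma adjusted p = 0.0137), though not without acute replicates 1 (0.0534) or 2 (0.0634). Tppp3, a tubulin-binding protein, rose 1.94-fold (limma adjusted p = 0.0234), and its call ended without acute replicates 1 (0.0647) or 3 (0.0941) or resolution replicates 2 (0.0533) or 4 (0.0505). Fam183b fell, with its resolution arrays and 2 of 3 acute arrays below background (limma adjusted p = 0.0151, and 0.0691 without acute replicate 3). Resolution against control gave 5 rises and 3 falls among the 55 tested epithelial markers (9.09% and 5.45%), where 18.6% of all tested genes were called in either direction. Krt19 was 3.43-fold higher there (limma adjusted p = 9e-06), while Pdpn, a membrane glycoprotein of type 1 cells and of macrophages, was 2.68-fold lower (0.00066).

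**Figure D4:**
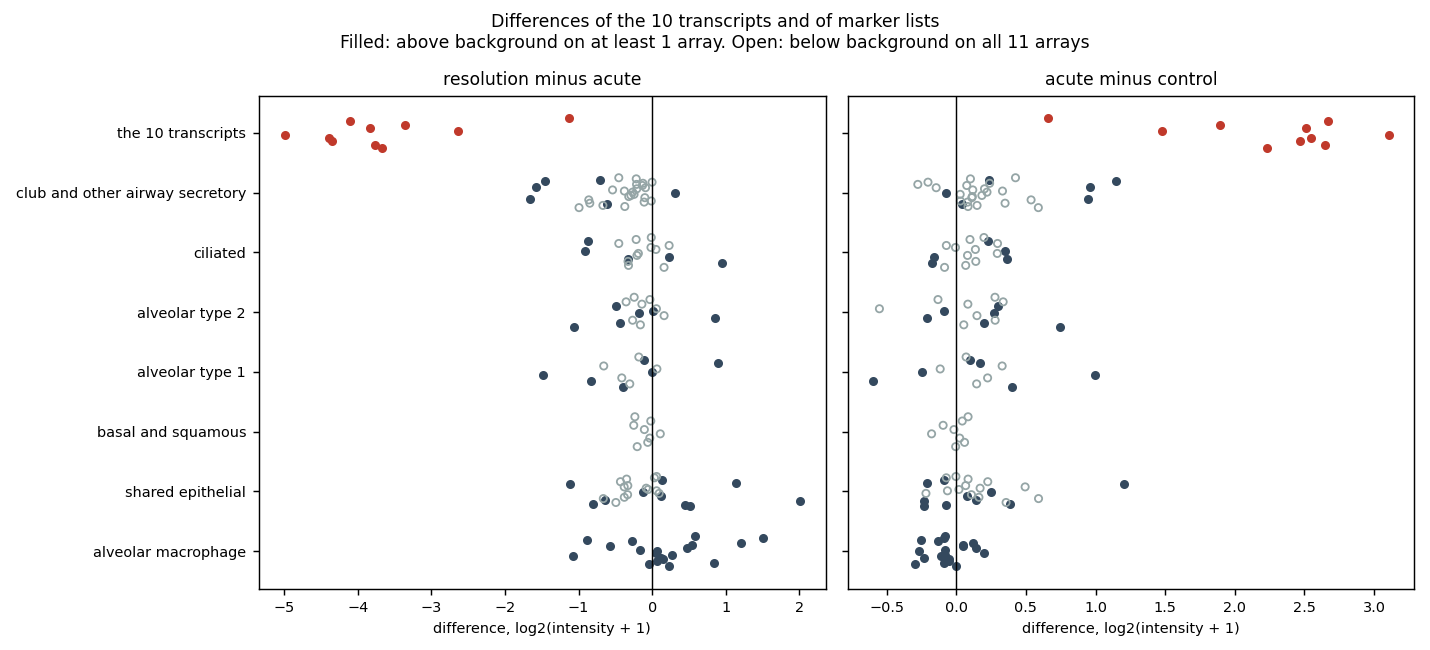
Differences on the log2(intensity + 1) scale of resolution minus acute (left) and acute minus control (right) for the 10 transcripts and for 7 marker lists. Each point is a gene, filled where it was above background on at least 1 array and open where it was below on all 11. The 10 transcripts extend to -5.00 and to 3.10, while on the same sides the listed markers reach -1.66 (Reg3g) and 1.20 (Muc1). On the other side of the left panel Krt19 lies at 2.01.

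Most relatives of the 10 transcripts in the same gene families were not detected. Of 45 other genes on the array whose symbols start with Scgb, Bpif, Cyp2a, Cyp2f or Sftp or are those of carbonyl reductases, a rule that also takes in Cyp2ab1 of a separate subfamily, 31 were below background on all arrays, and the median acute difference from control was 0.00. For acute against control limma called 0 of 25 tested, with 3 at an unadjusted p under 0.05, where 9.05% of all tested genes had one. Of 12 other Bpif genes, 1 was above background on any array. The 6 family genes above background on all arrays included the secretoglobins Scgb1b19, Scgb1b20, Scgb1b7 and Scgb2b10. Scgb1b19 averaged 8.94 in resolution, 8.59 in acute and 8.82 in control arrays, and Scgb1b20 7.72, 7.76 and 7.58. In the same order Scgb1b7 averaged 7.66, 7.69 and 7.76, and Scgb2b10 7.13, 7.36 and 6.85. Their groups overlapped in every comparison. Cyp2ab1 was 0.41 higher in acute than in control arrays and was not called (limma adjusted p = 0.581). Its acute arrays lay above its control arrays without overlap, as did those of 4.71% of all tested genes. Among carbonyl reductases Cbr1 had 8.21, 8.39, 8.13 and 8.21 in resolution arrays, 8.06, 8.04 and 8.31 in acute arrays, and 7.95, 8.25, 8.05 and 8.32 in control arrays, so that its groups were intermixed. Cbr3 was the 1 family gene called for resolution against control, at least 1.21-fold lower (limma adjusted p = 0.00525), where 18.6% of all tested genes were called. Sftpa1, described above, was the 1 called for resolution against acute, where 6.69% of all tested genes were lower.

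The genes whose profile was closest to the mean of the 10 transcripts were found by the root mean square distance over the 11 arrays, each profile centred on its own mean. The mean profile enters with the 10 transcripts themselves, of which 8 took ranks 1 to 8 among 12143 genes, while Bpifb1 ranked 33 and Sftpc 564. After them came Ltf (distance 0.56), Ctla2a (0.65), Il2rb (0.67), Cxcl16 (0.72), Ramp3 (0.81), Reg3g (0.83), H2-Q5 (0.84) and Ptafr (0.84), in log2 units, against a median distance of 1.50. Ltf, lactoferrin, an iron-binding protein of secretions and neutrophil granules, had 4.50, 4.40, 4.94 and 5.01 in resolution arrays, 7.71, 6.49 and 6.82 in acute arrays, and 5.62, 5.41, 5.74 and 6.32 in control arrays. Like the airway transcripts, Ltf was highest among acute arrays in replicate 1, but it was chosen for nearness to their profile over these same arrays. Cxcl16, a transmembrane chemokine, averaged 11.63 in resolution, 14.01 in acute and 13.31 in control arrays. Il2rb, a cytokine receptor chain of lymphocytes, was above background on the acute arrays only.

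Markers of further cell types are given beside these values, and their part in the airway levels was not tested. Cd3d, a chain of the T cell receptor complex, was above background on all 3 acute arrays, at 6.50, 6.91 and 6.23, and on no resolution or control array. Summed intensity of the 7 measured T cell genes was 239 to 293 in resolution, 313 to 555 in acute and 294 to 350 in control arrays, and 4 of the 7 were below background throughout. Neutrophil genes (8 measured) summed to 4428 to 7948 in resolution, 4467 to 5586 in acute and 3331 to 10436 in control arrays. The 8 NK cell genes summed to 175 to 192 in resolution, 223 to 270 in acute and 164 to 208 in control arrays. Of these 8, 7 were below background on all arrays, so that the sums are mostly background signal. Interferon-gamma induced genes (17 measured) summed to 22051 to 28840 in resolution, 33934 to 49013 in acute and 17707 to 18565 in control arrays. Of the alveolar macrophage markers 0 of 19 were called for acute against control by limma, and 0 had an unadjusted p under 0.05. For resolution against control 6 of the 19 rose and 4 fell, where 18.6% of all tested genes were called. The largest of these differences were those of Abcg1 (1.42), Cidec (1.33), Fabp4 (-1.20) and Ctsk (-1.14), and that of Pparg was 0.75. For resolution against acute 4 rose and 3 fell, where 7.77% of all tested genes were higher and 6.69% lower.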

How the data were processed

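RNA of 11 alveolar macrophage preparations was measured on 1 Affymetrix array each. Per the submitters' processing notes the authors used Affymetrix Expression Console. For its version, summary method and genome build, no statement was found in the labels. Values as deposited are linear intensities and were taken as log2(value + 1) without rescaling, and gene names came from the platform annotation (19572 of 28846 clusters with 1 symbol). The cluster with the highest mean stood for a symbol, and each of the 10 transcripts had 1 cluster. Genes were tested where at least 3 arrays exceeded their own 40th percentile (12143 genes, all 10 transcripts among them). A model with a mean for each of the 3 groups was fitted to the 11 arrays together with limma 3.58.1 (R 4.3.3), two-sided, with Benjamini-Hochberg adjustment over those genes and a threshold of 0.05. The procedure was tested on simulated data. Errors are SD for group means and moderated SE for differences.

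The 10 transcripts and the marker lists were chosen with earlier results of these data known, and so was the background threshold. A group below background on all of its arrays gives a bound only, against the higher of the background and the measured level on each array. Besides the 10 transcripts, the text names genes of the marker lists, some tested family genes, the 8 nearest profiles and a few macrophage and interferon genes. The rule for lists was up to 4 called genes of largest change or, where none was called, the gene of smallest p. It was not followed in full, since called genes of the neutrophil, NK cell and endothelium lists and most of the interferon-gamma list are unnamed. Gabrp, Krt18, Nkx2-1, Cyp2a4, Alas2 and Cd3d were named after their values were seen. Epcam, Cdh1 and Csf1r were also named outside the rule. Alternatives were a pseudocount of 16, no filter, median scaling, quantile normalization, the mean over clusters, the replicate number as a block, fits of the compared groups only and leaving out each array. Calls of single genes were not followed under the mean over clusters or the fits of the compared groups only. Promoter windows came from RefSeq (GRCm38.p6), with windows for 7 of the 10 genes searched. Scgb1a1 and Sftpc had no window, and windows on chromosome 18, where Scgb3a2 lies, were left out for the 10 genes. The shares over all windows were counted without that rule. The number of arrays limits the precision.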

Additional observations from a re-analysis of the deposited data

Results flagged for a closer look

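For 9 of the 10 transcripts every acute array lay above the control mean and every resolution array below it. The acute and the resolution mean differences from control, which share the 4 control arrays, were 2.23 and -1.44 for Scgb1a1, 2.64 and -1.12 for Scgb3a1, and 2.47 and -1.88 for Scgb3a2. They were 2.55 and -1.84 for Bpifa1, 3.10 and -1.89 for Bpifb1, and 1.48 and -1.17 for Cyp2f2. For Cyp2a5 they were 2.51 and -1.33, for Cbr2 1.90 and -1.47, and for Tspan1 2.67 and -1.43. The resolution values of Bpifb1 and Tspan1 were below background on all 4 arrays, so that their negative differences are between measured signals and not sizes of an effect. The difference between the 2 effects was not tested, because these genes were chosen from the same contrasts.

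Sftpc in resolution replicate 3, at 9.53, stood apart from the other 3 resolution arrays, with a gap of 0.878 of the group's range. Chance sets about 1 in 20 such groups apart, and 20 were examined.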

How the results depend on the processing

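The median acute difference of the 10 transcripts from control was 2.40 to 2.68 under other pseudocounts, scalings, cluster rules and the replicate block, and 2.09 to 2.73 with single arrays left out. For resolution against control these ranges were -1.48 to -1.24 and -1.67 to -1.24, and for resolution against acute -3.99 to -3.54 and -4.05 to -3.53. No difference of a single transcript changed sign under these alternatives. Tspan1 moved by more than the spread between replicates in 1 case, to -3.45 for resolution against acute with a pseudocount of 16. No pairing of arrays by replicate number was seen. Deviations of same-numbered arrays correlated at -0.124 to 0.0872 in 10 pairs, and those of differently numbered arrays at -0.14 to 0.2. With 3 or 4 arrays a group these correlations cannot exclude a pairing. With the replicate block the 3 medians were 2.68, -1.44 and -3.99, and limma called 25, 2120 and 1455 genes. Counts over all genes moved more. For acute against control limma called 29 genes (23 higher and 6 lower), 16 with only the compared groups in the fit, and 6 to 29 with single arrays left out. It called 18 without control replicate 2, 13 without control replicate 1, 10 without acute replicate 3 and 6 without acute replicate 2. Resolution against acute gave 1755 genes (943 higher and 812 lower), 673 higher and 989 lower after median scaling, 685 and 1151 after quantile normalization, and 1069 to 1837 with single arrays left out, lowest without acute replicate 1. Resolution against control gave 2259 genes, and 1829 to 2242 with single arrays left out. The cause of these shifts was not tested. Signal over background limits Tspan1, Bpifb1, Cyp2a5 and Cyp2f2 in resolution arrays.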

Other observations

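Within the acute group the airway transcripts and the interferon-gamma induced chemokine Cxcl9 stood in a different order. Cxcl9 had 7.62, 8.63 and 8.17 in acute replicates 1, 2 and 3, lowest in replicate 1, while Scgb1a1 had 11.48, 11.06 and 10.94, highest in replicate 1. Control replicate 4, with the highest Scgb1a1 level among controls (9.81), had the lowest control level of Siglecf (14.5, against a mean of 15.1 in the other controls). The macrophage marker Chil3 went the other way, at 16.96 in that array against a mean of 16.84 in the other controls. With 3 and 4 arrays in these groups no test of such an order was made.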
